A study of Mus musculus with 12 samples.

Results

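Aminoacyl-tRNA synthetases, the enzymes that join each amino acid to its transfer RNA, were examined in AML12 cells exposed to copper and to taurocholic acid. The members were the genes of the deposited table whose symbol is an amino acid letter followed by "ars", with or without a closing 1 or 2, together with Eprs, Farsa, Farsb and Tarsl2. This rule found 38 genes of the 24824 in the table and used no measured value. Symbols that end in 2, other than Tarsl2, were taken as mitochondrial, which gave 17 enzymes, and the other 21 as cytosolic. The cytosolic set includes Kars and Gars, the lysine and glycine enzymes, which serve both compartments.

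AML12 is an established line of mouse hepatocytes. Group A was cultured in standard growth medium. For group B the medium held CuCl2 at 300 μM and elesclomol (ES), which carries copper into cells, at 40 nM. Group C had the same CuCl2 and ES together with the bile acid taurocholic acid (TCA) at 1000 μM, and group D had TCA at 1000 μM alone. Every treatment lasted 24 h. Each group had 3 libraries of polyadenylated RNA, named A1 to D3 below. The study used these groups to ask how copper overload changes transcription in hepatocytes and what the bile acid adds to it. No source states that the libraries came from separate cultures, so p-values measure the spread between these libraries, which may be technical.

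The values were FPKM, fragment numbers relative to gene length and library size, which can be compared between genes because they are per length. The libraries held 38293814 to 39103334 reads (A), 30773226 to 32001533 (B), 29114368 to 34911771 (C) and 39438590 to 39776740 (D), as recovered from the values. In groups B and C the libraries differed from those of A and D as a whole. The 100 genes with the highest FPKM held 51.4% to 51.9% of the summed FPKM in group B against 31.1% to 31.9% in group A, and 8458 to 8576 genes against 10805 to 10893 reached an FPKM of 1. The 13 protein genes of the mitochondrial genome took 4.08% to 4.49% of the reads in group B and at most 2.23% in group A. Fewer cells and less RNA per cell cannot be told apart in bulk samples. Of 6 hepatocyte markers in the table, Alb and Hnf4a were at 0 in every library of groups A and D, Apoa1 and Trf reached at most 0.0259 there, and only the keratins Krt8 and Krt18 were high, so most defining hepatocyte markers were absent. Summed FPKM of the 6 was 596 to 649 for A, 236 to 287 for B and 172 to 209 for C, nearly all of it the keratins, while Apoa1 (1.18 to 2.44) and Trf (0.418 to 0.898) were higher in group B than in A. Those of 4 macrophage markers were 72.5 to 102 in A, 24.6 to 29.1 in B, 24.1 to 36.8 in C and 25.5 to 37.0 in D, nearly all of it Cd68, and Adgre1 was at 0 in all but 1 library. The sums of 3 endothelial markers were 0.922 to 1.16 in A, 6.76 to 10.5 in B and 16.5 to 19.7 in C, chiefly Pecam1. The 3 cholangiocyte markers summed to 230.1 to 325 in A and 111 to 139.9 in B, where Krt19 was lower and Sox9 higher (47.1 to 54.3 FPKM against 7.44 to 12.3), and the 2 stellate markers to 8.28 to 11.7 and 0.251 to 0.622. The part of these differences in the results below was not tested.

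As background, each synthetase recognises 1 amino acid and its tRNAs, apart from Eprs, which serves glutamate and proline. The cytosol and the mitochondrion mostly have enzymes of their own, both encoded in the nucleus. The enzymes fall into a class I and a class II catalytic fold. Eprs, whose glutamate part is class I and proline part class II, was counted as class I. In animal cells a group of the cytosolic enzymes (those for aspartate, glutamate and proline, isoleucine, leucine, lysine, methionine, glutamine and arginine) is held in a multisynthetase complex. Uncharged tRNA activates the kinase GCN2, encoded by Eif2ak4, which raises translation of the transcription factor ATF4, and many cytosolic synthetase genes are known targets of ATF4.

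ATF4 binds amino acid response elements, so the promoters were searched for the letters TGATGNAA on both strands. The window ran from 250 bases before to 50 bases after the RefSeq gene start in GRCm38.p6. A promoter entry matched 28 of the 38 members by symbol, 14 cytosolic and 14 mitochondrial. Among those not matched were Cars, Hars, Hars2, Lars, Nars, Pars2, Rars, Vars and Wars1. The letters were found for 5 of the 14 cytosolic and 0 of the 14 mitochondrial members matched. The share was 4.51% of 27025 mouse genes and 3.97% of 32851 promoters of the same length. At so low a share, 0 of 14 does not show a lack of the element. The 5 promoters that held it are shown from 150 bases before to 50 bases from the start, with the element in capitals. A match is a description of the letters and not of a binding site.
Aars (alanine, chr8:111033692-111033891, plus strand): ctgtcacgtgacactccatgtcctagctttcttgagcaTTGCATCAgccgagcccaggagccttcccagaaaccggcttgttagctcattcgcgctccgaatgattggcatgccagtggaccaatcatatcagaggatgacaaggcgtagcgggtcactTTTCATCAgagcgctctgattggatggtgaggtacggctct
Gars (glycine, chr6:55037851-55038050, plus strand): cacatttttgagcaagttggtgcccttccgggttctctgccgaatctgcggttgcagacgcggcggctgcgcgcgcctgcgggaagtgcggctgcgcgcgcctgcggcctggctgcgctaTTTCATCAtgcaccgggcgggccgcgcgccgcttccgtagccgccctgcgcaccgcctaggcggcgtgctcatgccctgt
Iars (isoleucine, chr13:49681980-49682179, plus strand): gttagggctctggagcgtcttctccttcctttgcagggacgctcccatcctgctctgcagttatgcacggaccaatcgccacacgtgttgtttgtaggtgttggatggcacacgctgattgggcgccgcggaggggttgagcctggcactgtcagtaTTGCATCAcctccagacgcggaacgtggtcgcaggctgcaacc
Tars (threonine, chr15:11399609-11399808, minus strand): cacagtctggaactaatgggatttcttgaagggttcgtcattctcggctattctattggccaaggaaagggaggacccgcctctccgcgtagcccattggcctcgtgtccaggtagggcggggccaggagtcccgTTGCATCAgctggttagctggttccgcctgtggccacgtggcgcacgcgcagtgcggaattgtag
Yars (tyrosine, chr4:129189753-129189952, plus strand): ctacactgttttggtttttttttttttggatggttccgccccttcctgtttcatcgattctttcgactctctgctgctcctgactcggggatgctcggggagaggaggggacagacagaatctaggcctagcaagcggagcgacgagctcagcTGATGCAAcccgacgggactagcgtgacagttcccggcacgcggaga

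In Aars the element began 112 bases before the start and again at base 10 of the transcript. It began 30 bases before the start in Gars and 15 before it in Tars, and at base 8 in Iars and base 4 in Yars, counted from the start base. In the 250 bases before the start alone, Aars, Gars and Tars held it, 3 of 14, against 3.91% of all genes and 3.45% of all promoters. The heat shock element was taken as 3 neighbouring units of 5 bases that alternate in strand, with NGAAN as the unit. It was found for 0 of the 28 members matched, against 0.662% of all genes and 0.603% of all promoters.

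In growth medium the cytosolic enzymes were the more abundant set. Their summed FPKM was 1963, 1817 and 2001 in libraries A1, A2 and A3, against 111, 106 and 112 for the mitochondrial enzymes. The highest level was that of the asparagine enzyme Nars, at 321, 282 and 311 FPKM, followed by the arginine enzyme Rars, at 277, 251 and 278. The lowest of the Nars values lay just above the highest of Rars, so these neighbours in the order stood close together. Sars (serine, 191 ± 16), Gars (164 ± 9.8), Kars (137 ± 2.0) and Tars (107 ± 5.4, mean ± SD, n = 3) came next. The lowest cytosolic level was that of Tarsl2, a second threonine enzyme, at 4.49 ± 0.19, and of the others Farsb, the beta subunit of the phenylalanine enzyme, was lowest at 14.5 ± 1.1. Among the mitochondrial enzymes Lars2 (leucine, 18.8 ± 1.2) and Iars2 (isoleucine, 15.3 ± 0.48) led. The asparagine enzyme Nars2 had 1.03, 0.73 and 1.07 FPKM and the glutamate enzyme Ears2 0.72, 1.16 and 0.85, the lowest values of the 38, and their ranges overlapped. Both had a mean below 1 over the 12 libraries and were not tested.

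**Figure D1:**
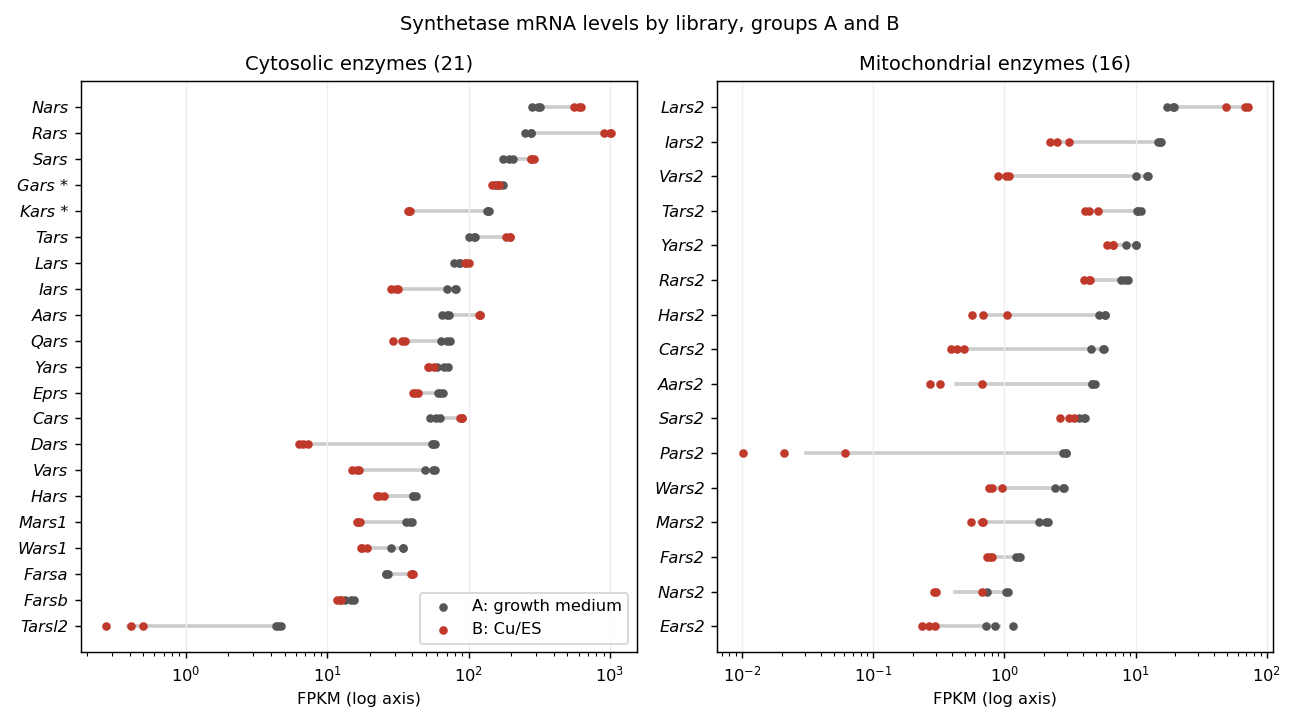
FPKM of the 21 cytosolic (left, asterisk marks the enzymes of both compartments) and 16 mitochondrial (right) synthetases in the 3 libraries of group A (grey) and the 3 of group B (red), on a log axis, with a line joining the group means. Rars and Lars2 lie far to the right in group B, and 15 of the 16 mitochondrial enzymes shown lie to the left of their values in group A.

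The first question was what copper with elesclomol did to these mRNAs (group B vs. A). Rars and the mitochondrial Lars2 rose, whereas 16 others fell past both thresholds. On the log2(FPKM + 1) scale the deepest falls were those of the aspartate enzyme Dars and of the mitochondrial valine, isoleucine and cysteine enzymes Vars2, Iars2 and Cars2. The summed FPKM of the cytosolic enzymes was 2886, 2695 and 2918 in the 3 libraries of group B, above all of group A. That of the mitochondrial enzymes was 93.6, 101 and 77.8, and without Lars2 it was 25.4, 28.8 and 28.4 against 91.3, 88.9 and 92.5 in group A.

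Rars was at 1006, 904 and 1021 FPKM in group B against 277, 251 and 278 in group A. Its libraries did not overlap, and the rise was 1.86 ± 0.08 on the log2(FPKM + 1) scale (fitted value ± SE, limma, adjusted p = 3.0e-11). Lars2 was at 68.2, 71.8 and 49.4 FPKM against 19.3, 17.4 and 19.7, with B3 the lowest of its group. Its log2 fold change was 1.68 ± 0.20 (limma, adjusted p = 1.5e-06). Lars2 charges leucine in the mitochondrion and was the only mitochondrial enzyme whose group B libraries all lay above group A.

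Dars, a subunit of the multisynthetase complex, had 6.30, 7.27 and 6.70 FPKM in group B against 56.0, 55.4 and 57.6 in group A. The log2 fold change was -2.89 ± 0.10 (limma, adjusted p = 3.2e-12). Vars2 had 1.08, 1.03 and 0.89 FPKM against 12.2, 10.02 and 12.4, a log2 fold change of -2.65 ± 0.09 (limma, adjusted p = 2.9e-12). All libraries of group B were below those of group A for both genes. Iars2 was at 2.25, 3.12 and 2.52 FPKM against 15.7, 14.8 and 15.5, with a log2 fold change of -2.18 ± 0.10. Cars2 was at 0.492, 0.433 and 0.394 FPKM against 4.60, 5.74 and 5.67, with a log2 fold change of -2.13 ± 0.11. The adjusted p of limma was 3.4e-11 for Iars2 and 7.6e-11 for Cars2. The reads behind the low values were few, 28 to 36 per library of group B for Cars2 and 123 to 153 for Vars2. The proline enzyme Pars2 had 6, 1 and 2 reads in group B against 337 to 355 in group A, so its log2 fold change of -1.92 ± 0.07 is bounded by the pseudocount. As a ratio of mean FPKM its fall was the deepest, 93.9-fold, and those of Cars2 (12.1-fold), Vars2 (11.6-fold), Tarsl2 (11.5-fold) and Aars2 (11.2-fold) exceeded that of Dars (8.34-fold).

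Over the whole set, 1 of the 21 cytosolic enzymes (Rars) rose past both an adjusted p of 0.05 and a log2 fold change of 1, and 7 fell past both, namely Dars, Tarsl2, Kars, Vars, Iars, Mars1 and Qars. Of the 15 mitochondrial enzymes tested, 1 (Lars2) rose and 9 fell, among them Vars2, Iars2, Cars2, Aars2, Hars2, Pars2, Tars2 and Wars2. Of all 10615 genes tested, 10.1% rose and 53.0% fell past both, so the share that fell among the mitochondrial enzymes was near the background. Of the 36 members tested, 9 had a mean FPKM under 1 in both groups B and C and passed the filter through groups A and D. Tarsl2 was the only cytosolic one, and the mitochondrial ones included Aars2, Cars2, Fars2, Hars2, Mars2, Pars2 and Vars2. The fall count and median of the mitochondrial enzymes, and the p-values of Vars2 and Cars2, thus rest partly on members kept because they were high in A and D. By the adjusted p alone 8 cytosolic enzymes were higher (Rars, Nars, Tars, Aars, Cars, Farsa, Sars and Lars) and 12 were lower. By the same measure 2138 of all 10615 genes tested were higher and 7639 were lower. Without B2, 2 cytosolic enzymes rose past both thresholds, Nars being the second, and Lars lost its call without A2 or B1 and Sars2 without A2, A3 or B1. Lower by the adjusted p alone were Eprs (-0.57), Farsb (-0.23), Hars (-0.78), Wars1 (-0.81) and Yars (-0.30) in the cytosolic set, and Fars2 (-0.36), Mars2 (-0.88), Rars2 (-0.81), Sars2 (-0.29) and Yars2 (-0.49) in the mitochondrial set, all as log2 fold changes. The median log2 fold change was -0.30 for the cytosolic and -1.07 for the mitochondrial enzymes, beside -1.10 over all genes tested. Of the 21 cytosolic enzymes 15 lay above that median, and of the 15 mitochondrial ones 8.

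Without any filter, all 3 libraries of group B lay above those of group A for 8 of the 21 cytosolic enzymes and below for 12. Of the 17 mitochondrial enzymes, 1 lay above and 16 below in this way. The untested Ears2 (0.237, 0.267 and 0.295 FPKM in group B) and Nars2 (0.304, 0.672 and 0.292) were among the latter. Over the whole table these shares were 18.6% and 41.2%. The table includes many genes near 0, whose libraries can hardly separate, so these shares are a low background. The share among the genes tested was not computed. Gars was the enzyme whose libraries overlapped, with 164, 145 and 159 FPKM in group B against 165, 155 and 174 in group A and a log2 fold change of -0.07 ± 0.07 (limma, adjusted p = 0.30). Kars, the other enzyme of both compartments, was at 38.7, 37.2 and 38.0 FPKM against 137, 139 and 135. Its log2 fold change was -1.82 ± 0.05 (limma, adjusted p = 5.3e-13).

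**Figure D2:**
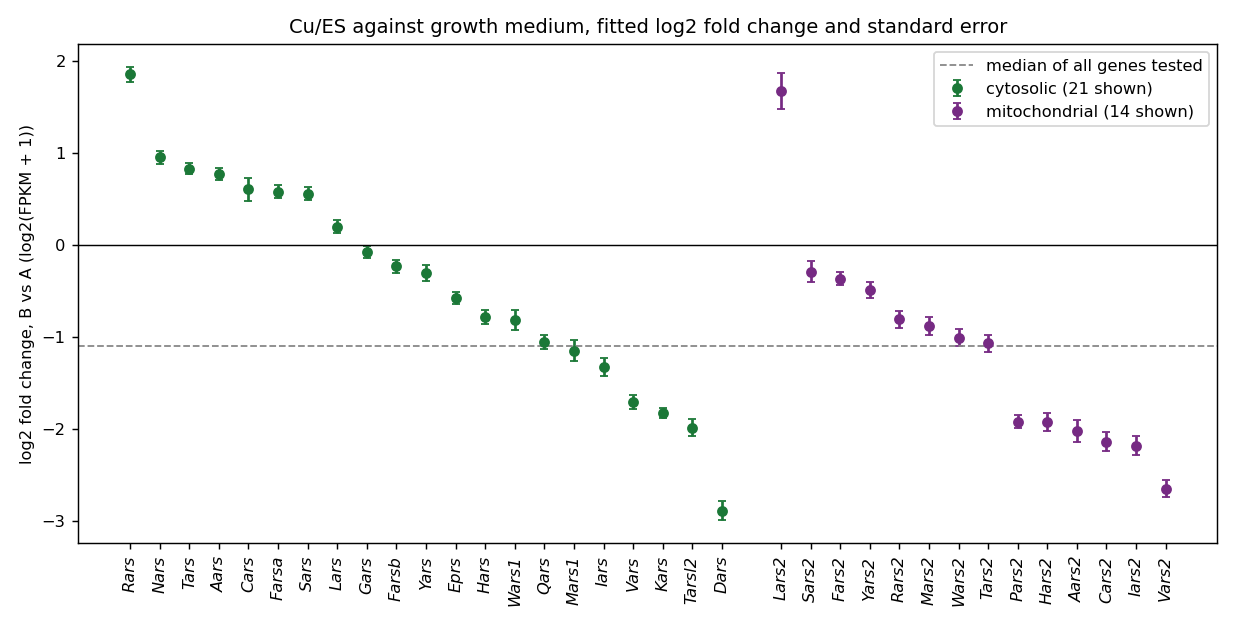
Fitted log2 fold change of group B vs. A with its standard error for 35 of the synthetases tested, cytosolic in green and mitochondrial in purple, each set in falling order. The dashed line is the median of all genes tested (-1.10), and Lars2 is the only mitochondrial point above 0.

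Because 53.0% of all genes fell in group B on the FPKM scale, the direction of a member can depend on the scaling of the libraries. The median of all genes tested was -1.56 with TPM, -0.03 with median-ratio scaling, -0.10 with quantile normalization and -1.33 with limma-voom on recovered reads. Under FPKM and each of these 4 scalings, 6 of the 36 members (Aars, Farsa, Nars, Rars, Tars and Lars2) were higher and 11 were lower with an adjusted p under 0.05, among the latter Dars, Kars, Tarsl2, Vars, Aars2, Cars2, Hars2, Iars2, Pars2 and Vars2. For this rule and for changes of direction the share of all genes was not computed, so these counts have no background. The direction of 9 cytosolic and 7 mitochondrial enzymes changed under at least 1 scaling, among them Eprs, Farsb, Gars, Hars, Yars, Tars2 and Sars2. With median-ratio scaling 9 cytosolic enzymes rose and 2 fell past both thresholds, and with quantile normalization 2 rose and 4 fell. Of all genes tested 25.9% rose and 25.5% fell with the first of these, and 20.7% and 22.2% with the other. The cytosolic median lay above the mitochondrial one under FPKM, TPM, median-ratio scaling and voom, and below it under quantile normalization (-0.19 against 0.22).

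Members of the multisynthetase complex and the other cytosolic enzymes are listed here by count. Of the 8 enzymes of the complex, Rars rose and 5 (Dars, Kars, Iars, Mars1, Qars) fell past both thresholds, with a median log2 fold change of -1.10. Of the other 13, 2 (Tarsl2 and Vars) fell past both, and by the adjusted p 6 were higher and 6 lower, with a median of -0.07. Among all 10615 genes tested 10.1% rose and 53.0% fell past both. By the adjusted p 2138 of them were higher and 7639 lower. The median was -0.69 for the 10 class I and -0.07 for the 11 class II cytosolic enzymes, and -0.94 and -1.73 for the 8 class I and 7 class II mitochondrial enzymes tested. The phenylalanine enzyme is built from the products of 2 genes, whose mRNAs moved in opposite directions on the FPKM scale. Its alpha subunit Farsa went from 26.2 ± 0.52 to 39.7 ± 0.90 FPKM and its beta subunit Farsb from 14.5 ± 1.1 to 12.2 ± 0.39 (limma, adjusted p = 1.4e-06 and 0.0085). Under median-ratio scaling and quantile normalization the log2 fold changes of both were above 0.

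A ratio of 2 enzymes for the same amino acid within a library does not depend on a factor that scales the whole library. Quantile normalization is not such a factor. It was formed for 16 pairs of a cytosolic and a mitochondrial enzyme, with Eprs paired with both Ears2 and Pars2. The ratio was above group A in all libraries of group B for 15 pairs and below it for 1, Lars to Lars2. In group A the cytosolic enzyme had the higher FPKM in every pair. Other pairs of an abundant and a scarce gene were not counted, so no background share stands beside this or the later pair counts. The median difference over the 16 pairs was 1.55 on the log2 scale. In a 3 against 3 exact permutation test each of these has p = 0.1, two-sided, which is the smallest the design allows and cannot reach 0.05. For alanine, Aars stood at 15.2, 14.1 and 14.7 times Aars2 in group A and at 177, 437 and 371 times in group B. For arginine, Rars stood at 35.6, 28.6 and 33.2 times Rars2 in group A and at 248, 206 and 226 times in group B. For threonine the ratio of Tars to Tars2 was 10.003, 9.86 and 10.4 in group A, and 47.4, 41.9 and 37.8 for group B. Cars to Cars2, Nars to Nars2 and Hars to Hars2 moved the same way, by 4.22, 2.22 and 2.13 on the log2 scale. Eprs to Pars2 moved by 6.36, a value that rests on the 1 to 6 reads of Pars2. For leucine the ratio of Lars to Lars2 was 4.41, 4.55 and 4.43 in group A, and 1.48, 1.30 and 1.93 for group B. Tyrosine and methionine had the smallest rises, 0.25 for Yars to Yars2 and 0.47 for Mars1 to Mars2, and the latter turned to -0.27 when 1 was added to both FPKM values.

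**Figure D3:**
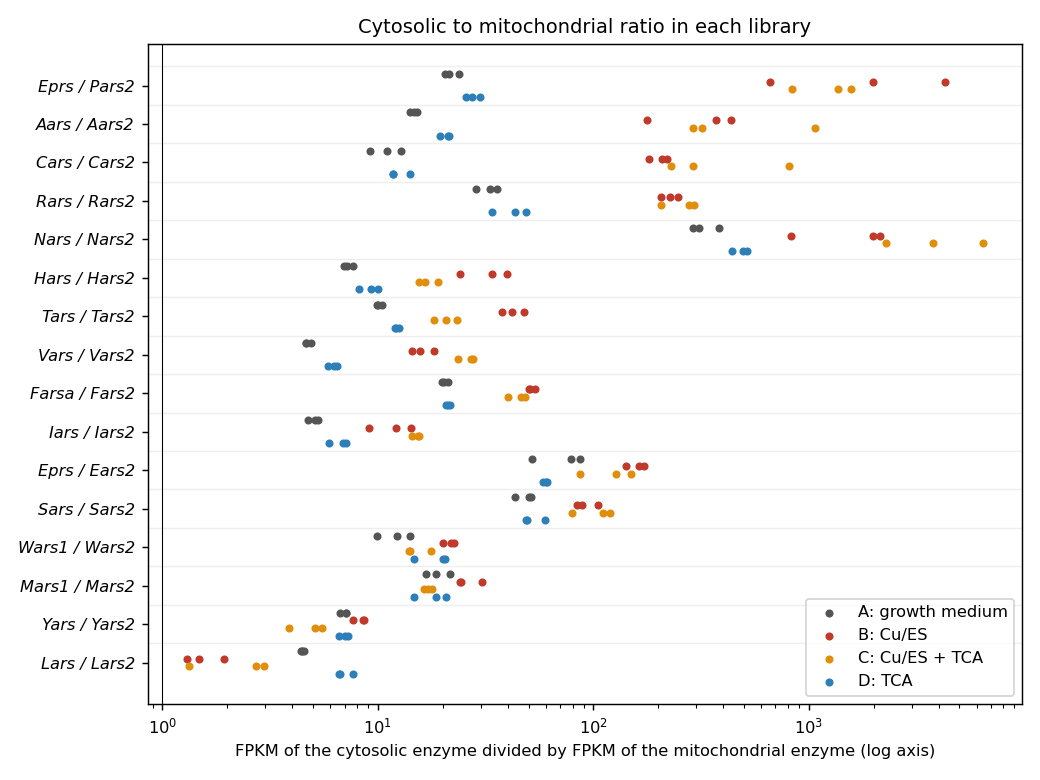
FPKM of the cytosolic enzyme divided by that of the mitochondrial enzyme for the same amino acid, 1 point per library, on a log axis, for groups A to D. Red points (group B) lie to the right of grey points (group A) in 15 of the 16 rows, and to the left for Lars to Lars2.

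The second question was what TCA added in cells that also received copper and elesclomol (group C vs. B). No member passed both thresholds by limma, also with the unadjusted p, against 2.29% of all genes tested, and 1 (Tars2) passed by voom. By the adjusted p alone, 2 cytosolic enzymes were higher (Qars and Aars) and 9 were lower (Hars, Dars, Kars, Eprs, Farsb, Yars, Sars, Farsa and Lars). Of the mitochondrial enzymes 1 was higher (Tars2) and 3 were lower (Lars2, Sars2 and Vars2). Without C2, 4 cytosolic enzymes were higher, and the call was lost by Farsa without B2, C1 or C3 and by Lars without B1, B3 or C2. Of all genes tested 20.4% were higher and 23.6% lower by this measure, and the median log2 fold change was -0.18 for the cytosolic enzymes, -0.07 for the mitochondrial enzymes and -0.03 for all genes.

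The mitochondrial threonine enzyme Tars2 had 8.32, 8.84 and 10.4 FPKM in group C against 4.12, 4.40 and 5.15 in group B. No library overlapped, and the log2 fold change was 0.87 ± 0.09 (limma, adjusted p = 8.2e-06). It passed both thresholds with TPM (1.01) and with voom (1.01). The histidine enzyme Hars was at 12.1, 12.3 and 14.6 FPKM against 22.6, 25.3 and 23.1, with a log2 fold change of -0.82 ± 0.08 (limma, adjusted p = 3.5e-06). Lars2 was at 29.7, 58.1 and 32.1 FPKM in group C, so C2 lay between B3 and the other libraries of group B and the groups overlapped. Its log2 fold change was -0.69 ± 0.20 (limma, adjusted p = 0.012). The adjusted p of limma rose to 0.053 without B2, 0.059 without C1 and 0.058 without C3, where the log2 fold changes were -0.59, -0.52 and -0.57.

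Qars, which charges glutamine in the cytosol, was 32.8 ± 3.3 FPKM in group B and 48.7 ± 2.1 in group C (log2 fold change 0.56). Kars was at 24.3, 25.9 and 24.1 FPKM in group C, below all of group B, with a log2 fold change of -0.60 ± 0.05 (limma, adjusted p = 2.6e-06). Gars was at 145, 148 and 147 FPKM, with a log2 fold change of -0.09 ± 0.07 (limma, adjusted p = 0.32). The ratio of cytosolic to mitochondrial enzyme was above group B in all libraries of group C for 4 pairs and below it for 6, and 6 pairs overlapped. Tars to Tars2 moved the most downward, from 47.4, 41.9 and 37.8 to 23.3, 20.6 and 18.1 (exact permutation test, two-sided, p = 0.1), and Hars to Hars2 from 39.7, 24.1 and 33.7 to 15.4, 16.6 and 18.9.

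The third question was what TCA did without copper (group D vs. A). By the adjusted p 10 of the 21 cytosolic enzymes were higher (Wars1, Tars, Rars, Aars, Lars, Gars, Nars, Hars, Farsb and Yars) and 1 was lower (Tarsl2). Of the 15 mitochondrial enzymes tested 1 was higher (Yars2) and 0 were lower by limma and by voom, while 1 (Vars2) was lower at an unadjusted p under 0.05. Of all genes tested 10.5% were higher and 11.5% lower. No member passed both thresholds by limma, by voom or with the unadjusted p, against 0.217% of all genes. The median log2 fold change was 0.25 for the cytosolic enzymes, -0.04 for the mitochondrial enzymes and -0.01 for all genes. All 10 cytosolic enzymes that were higher had an adjusted p under 0.05 under each of the 4 other scalings too, a rule for which the share of all genes was not computed.

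Wars1, the tryptophan enzyme, had 50.6, 40.1 and 52.4 FPKM in group D against 34.4, 28.1 and 34.4 in group A. The groups did not overlap, and the log2 fold change was 0.54 ± 0.11 (limma, adjusted p = 0.0035). Tars had 156, 143 and 154 FPKM against 111, 101 and 109, a log2 fold change of 0.49 ± 0.06 (limma, adjusted p = 0.00020). Rars had 401.5, 329.9 and 377 FPKM against 277, 251 and 278, a log2 fold change of 0.46 ± 0.08 (limma, adjusted p = 0.0024). In all 3 genes library 2 was the lowest of each group. Gars, at 229, 205 and 223 FPKM, was above all libraries of group A, with a log2 fold change of 0.41 ± 0.07 (limma, adjusted p = 0.0011). Kars, at 134.8, 134.4 and 134.8 FPKM, was close to group A, with D2 just below its range, and had a log2 fold change of -0.02 ± 0.05 (limma, adjusted p = 0.84). The call of Yars was lost without A1, A2, D1 or D3 (adjusted p of limma 0.056 to 0.089), that of Yars2 without A1, A2, A3, B3, D1, D2 or D3 (0.051 to 0.15) and that of Tarsl2 without A2, A3, D1 or D3 (0.053 to 0.074).

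The summed FPKM of the cytosolic enzymes was 2471, 2192 and 2433 in group D, above the 1817 to 2001 of group A, and that of the mitochondrial enzymes was 109, 107 and 107 against 106 to 112. The ratio of cytosolic to mitochondrial enzyme was above group A in all libraries of group D for 9 of the 16 pairs, below it for 0, and overlapped for 7. Of the 5 enzymes whose promoter held the amino acid response element 4 were higher (Aars, Gars, Tars and Yars), and Iars was at 0.25 (limma, adjusted p = 0.080). Of the 9 matched cytosolic promoters without it, 1 was of an enzyme that was higher (Farsb). The median log2 fold changes of these sets were 0.41 and 0.13, and 5 of the 7 cytosolic enzymes with no promoter entry were also higher (median 0.35). In group B vs. A the medians were -0.07 with the element, -1.05 without it and 0.20 for the enzymes with no promoter entry.

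The effect of TCA differed between cells with and without copper, as tested by the interaction (C vs. B minus D vs. A). It was lower than 0 for 14 cytosolic enzymes by the adjusted p and higher for 1 (Qars), with a median of -0.50, and for the mitochondrial enzymes it was lower for 1 (Sars2) and higher for 1 (Tars2), with a median of -0.03. Without C2, 2 cytosolic enzymes were higher and 4 mitochondrial enzymes were called, and the calls of Dars, Mars1 and Sars2 were lost in 4, 8 and 10 of the 12 fits that left out 1 library. Of all genes tested 19.8% were lower and 17.7% higher, with a median of 0.00. Hars alone passed both thresholds, at -1.16 ± 0.11 (limma, adjusted p = 1.3e-05), against 3.49% of all genes. It had 54.0, 50.3 and 52.7 FPKM in group D and 40.7, 40.5 and 42.3 in group A, so that it was higher with TCA in growth medium and lower with TCA beside copper. Farsb had 18.8, 17.3 and 18.8 FPKM in group D against 15.6, 13.4 and 14.7 in A, and 8.38, 8.24 and 7.76 in C against 11.8, 12.4 and 12.6 in B. Its interaction was -0.85 ± 0.10 (limma, adjusted p = 6.8e-05). Yars had 85.1, 74.9 and 85.0 FPKM in D against 67.3, 60.0 and 71.5 in A, and 32.9, 38.6 and 38.2 in C against 52.2, 56.8 and 51.8 in B. Its interaction was -0.84 ± 0.12 (limma, adjusted p = 0.00020). In all 3 genes the libraries with and without TCA did not overlap in either background.

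**Figure D4:**
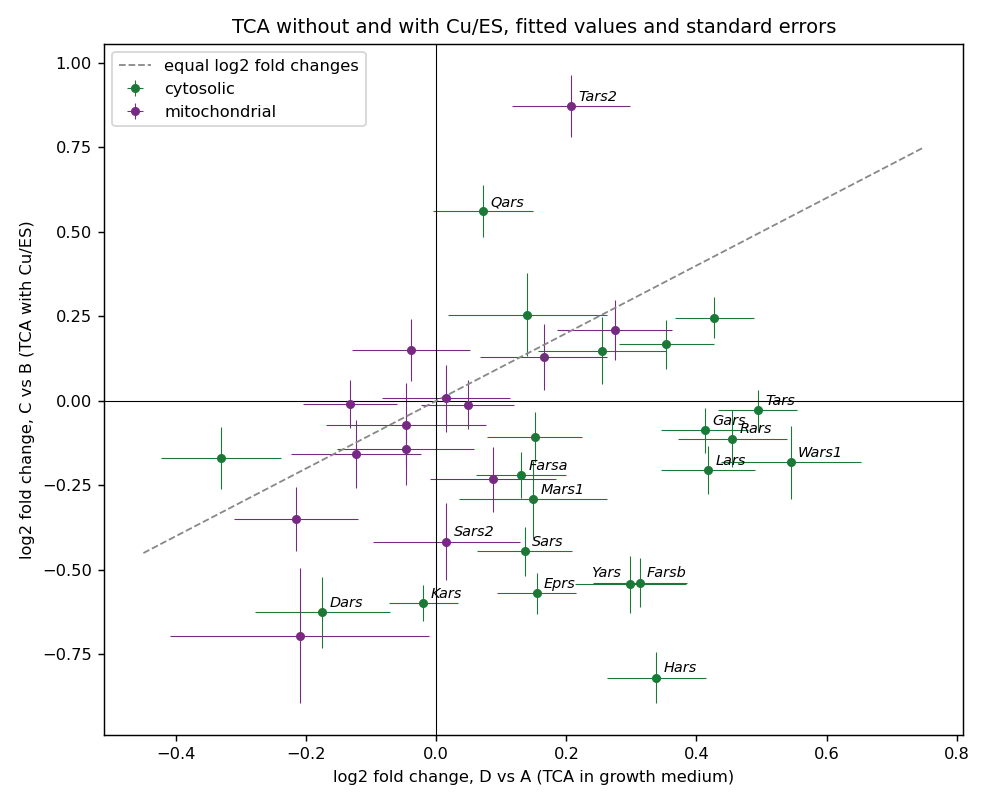
Log2 fold change with TCA in growth medium (D vs. A, horizontal) and with TCA beside copper and elesclomol (C vs. B, vertical), with standard errors, for 35 of the synthetases tested. The dashed line marks equal changes, the 17 named genes passed the interaction test at an adjusted p of 0.05, and most green (cytosolic) points lie below the line, Hars farthest, whereas Tars2 and Qars lie above it.

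**Figure D5:**
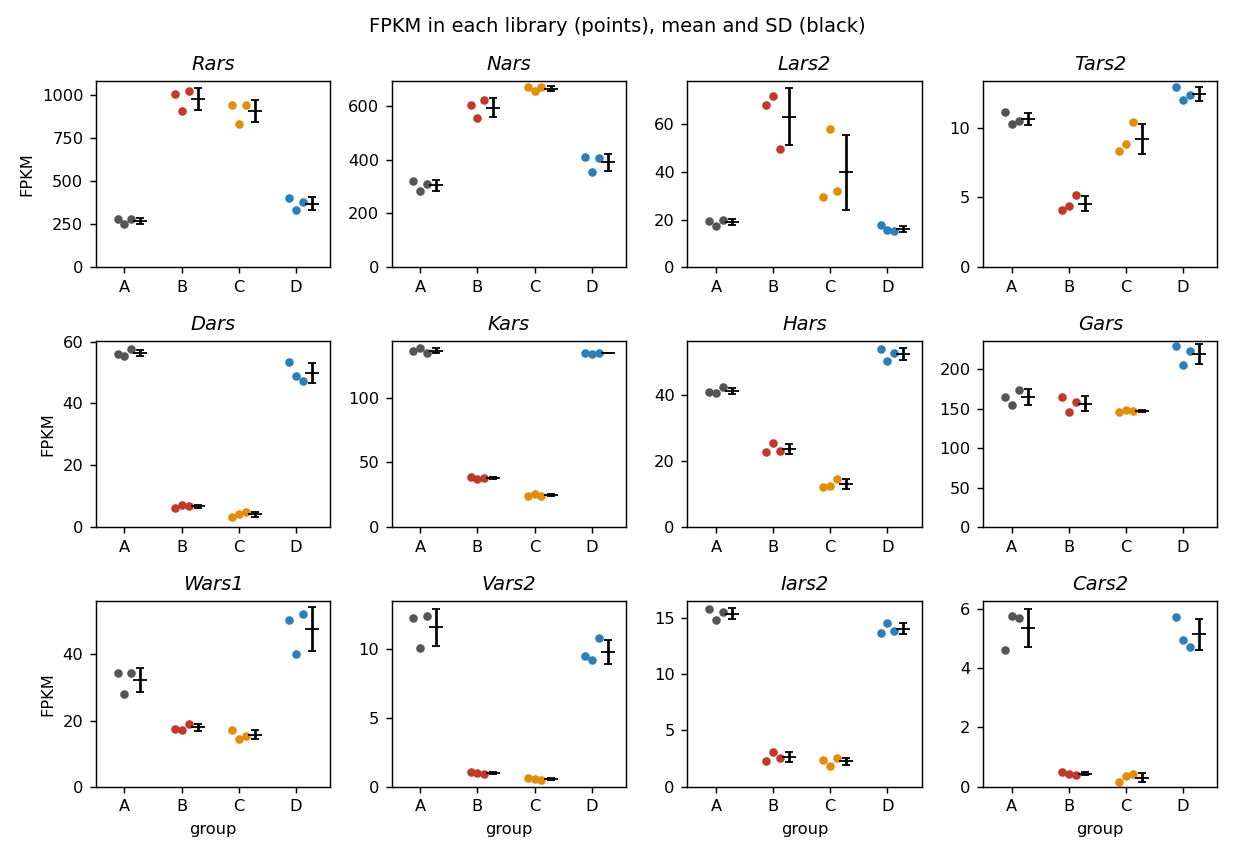
FPKM of 12 synthetases in each library by group, from 0, with the mean and SD in black beside the points. Rars and Lars2 are higher in groups B and C than in A and D, Tars2 stands at 10.6 in A, 4.56 in B and 9.17 in C (means), and Gars stands at 147 to 164 in groups A to C and at 219 in D (means).

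Genes that work beside the synthetases were described by list. Of 7 scaffold and trans-editing genes, which hold the multisynthetase complex together or clear wrongly charged tRNA, 5 fell past both thresholds in group B vs. A, where 53.0% of all genes tested fell and 10.1% rose. The editing gene Prorsd1 had 0.222, 0.0587 and 0.183 FPKM against 5.44, 6.39 and 7.08, the D-aminoacyl-tRNA deacylase Dtd1 had 1.65, 1.49 and 0.861 against 13.4, 12.3 and 11.8, and Dtd2 had 0.160, 0.0529 and 0.101 against 4.56, 5.06 and 6.38. Their log2 fold changes were -2.66, -2.55 and -2.51, and none changed direction under median-ratio scaling or quantile normalization. Of the scaffold genes, Aimp1 (-0.98) and Eef1e1 (-0.78) were at 0.28 and 0.45 under median-ratio scaling, whereas Aimp2 (-2.04) kept its direction under both.

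Mitochondria make glutaminyl-tRNA from the product of Ears2 with an amidotransferase, and start translation with formylated methionine. Of the 4 genes of these steps 3 fell past both thresholds. Mtfmt, the formyltransferase, had 0.294, 0.260 and 0.127 FPKM in group B against 6.48, 7.13 and 6.26 in group A (log2 fold change -2.64). The amidotransferase subunits Gatc (-1.32) and Gatb (-1.13) fell too on this scale, but were at 0.03 and 0.23 under quantile normalization. Selenocysteine is made on its tRNA after a synthetase has attached serine, and of 7 genes of that route 5 fell, both counts beside the 53.0% of all genes. The kinase Pstk had 0.232, 0.167 and 0.109 FPKM against 11.6, 9.80 and 12.4 (log2 fold change -3.38). The elongation factor Eefsec fell by 2.33 and Sephs1, named as a selenophosphate synthetase, by 2.11 on the log2 scale, and both kept their direction under median-ratio scaling and quantile normalization.

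Elongation factors carry charged tRNA to the ribosome, exchange the bound nucleotide or move the ribosome along. Of 5 cytosolic factors 1 rose past both thresholds, and all 5 were higher by the adjusted p. Among all 10615 genes tested 10.1% rose past both, and 2138 were higher by the adjusted p. The exchange factor Eef1b2 had 662, 608 and 713 FPKM in group B against 258.5, 264 and 278 in group A (log2 fold change 1.30). Eef1g (0.69) and Eef2 (0.64) were higher on the FPKM scale but were at -0.03 and -0.31 under quantile normalization. Eef1a1 was at 0.72 on the FPKM scale and at 0.00 under quantile normalization in every comparison. That method gives equal values to equal ranks, so the 0.00 cannot show whether the rise of Eef1a1 depended on the scaling. Of 4 mitochondrial factors 2 fell past both, against 53.0% of all genes. Tufm, which brings the charged tRNA, was at -0.13 (limma, adjusted p = 0.072), and at 1.12 under median-ratio scaling and 0.26 under quantile normalization. The exchange factor Tsfm had 1.28, 0.794 and 0.964 FPKM against 19.8, 19.7 and 21.7 (log2 fold change -3.42), and the elongation factors Gfm1 and Gfm2 had log2 fold changes of -1.36 and -0.59, the latter 0.39 under median-ratio scaling and 0.80 under quantile normalization.

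Of 12 genes of tRNA maturation and export 1 rose and 8 fell, shares near those of all genes (10.1% and 53.0%). The splicing endonuclease subunit Tsen15 had 1.28, 1.21 and 1.03 FPKM against 11.7, 10.8 and 12.1 (log2 fold change -2.53). The ribonuclease Elac1 (-2.29) and the subunit Tsen34 (-2.27) fell as well, in the same direction under both other scalings. The 1 that rose was Trmt10c, a subunit of mitochondrial ribonuclease P, with 35.5, 30.4 and 34.9 FPKM against 12.3, 13.1 and 11.6 (log2 fold change 1.38), which was named after its values were seen.

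Of 8 genes that sense uncharged tRNA or answer amino acid shortage, 1 rose and 3 fell past both thresholds in group B vs. A, against 10.1% and 53.0% of all genes. The transcription factor Atf3 had 438, 492 and 451 FPKM against 8.88, 6.85 and 8.46 (log2 fold change 5.67). The kinase Eif2ak4 had 1.54, 1.56 and 1.39 FPKM against 17.3, 16.6 and 16.5 (-2.83) and the pseudokinase Trib3 had 16.7, 16.5 and 18.8 against 95.2, 86.7 and 98.9 (-2.37). Atf4 itself was at 165, 179 and 173 FPKM against 253, 245 and 255 (-0.54), and was at 0.74 under median-ratio scaling. In group D vs. A, 5 of the 8 were higher by the adjusted p (Atf4, Trib3, Asns, Chac1 and Atf3), against 10.5% of all genes. Atf4 had 386, 361 and 351 FPKM (log2 fold change 0.54), Trib3 had 153, 136 and 147 (0.63) and Chac1, which degrades glutathione, had 58.6, 48.8 and 64.5 against 33.0, 30.8 and 34.9 (0.77).

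Some values rest on reads that may belong to a neighbour. In the GENCODE vM21 transcripts 12 members share at least 100 bases at 95% identity or more with another transcript. Hars and Hars2 share 195 bases, Iars2 shares 2034 with Rab3gap2, Aars 1326 with Exosc6 and Iars 1656 with the pseudogene Gm4849. Cars2, Fars2, Farsb, Nars2, Tarsl2 and Vars2 are among those that share shorter stretches. No source states whether counting used the strand, so reads of overlapping genes cannot be told apart in these members, and Rars, Kars, Dars and Lars2 had no such stretch.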

How the data were processed

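RNA of 12 libraries was measured by polyA RNA-seq. Per the labels, fastp, HISAT2 and HTSeq were used with the mouse build GRCm39, and the gene annotation is not given in the sources used here. The deposited file holds FPKM values by gene symbol, 1 column per library, with replicates kept apart. Members, lists and tests were chosen with earlier results of these data known. Of the members 1 counts in the totals and medians but is not reported here by itself, in a pair or in a plot.

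From these values log2(FPKM + 1) was computed, and the 10615 genes that averaged 1 FPKM or more were fitted as 4 groups with limma 3.58.1 in R 4.3.3 (empirical Bayes with trend, 8 residual degrees of freedom). P-values were two-sided and adjusted over all genes tested by the Benjamini-Hochberg method. The thresholds, 0.05 for the adjusted p and 1 for the size of the log2 fold change, are those the study states. Fold changes of low genes are understated by the pseudocount of 1. FPKM divides by the library total, so a change in a few abundant genes moves the others. TPM, median-ratio and quantile scaling, other filters, pseudocount 0.1, a replicate block, no trend, fits of 2 groups alone and leaving out 1 library at a time were alternatives. The steps between FPKM values gave back whole reads, within 0.02 reads, for 22212 of 22212 genes above 0 in at least 2 libraries, and limma-voom on these reads called 1211 genes higher and 6077 lower in group B vs. A past both thresholds. Read numbers bear on counting error only, while the SDs and limma standard errors given measure the spread between these libraries.

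Genes with values in every library are the 4 largest rises and falls among those past both thresholds in B vs. A, the 3 largest changes in the other comparisons, Kars, Gars, the extremes of the level order in group A and up to 3 genes of each list. The numbers 1 to 3 in the labels were checked for pairing. In B vs. A deviations from the group means correlated at 0.173, 0.174 and 0.142 between libraries of the same number, which was taken as pairing. The values were 0.277, 0.243 and 0.0050 in C vs. B and 0.087, 0.579 and 0.302 in D vs. A. In these 2 comparisons not every pair exceeded 0.1. The p-values given came from fits and permutation tests without pairing, and the replicate block was an alternative. No source says what the numbers share. The fit was tested on simulated data. Promoters came from RefSeq (GRCm38.p6). Python 3.11.15, pandas 2.3.3, numpy 2.4.6, scipy 1.17.1, matplotlib 3.10.9 and blastn 2.17.0 made the other tables and plots.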

Additional observations from a re-analysis of the deposited data

Results flagged for a closer look

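The effect of TCA differed between cells with and without copper and elesclomol for 17 of the 36 synthetases tested. The measure was the interaction of C vs. B minus D vs. A (limma, adjusted p under 0.05). The log2 interaction was below 0 for Hars (-1.16), Farsb (-0.85), Yars (-0.84), Wars1 (-0.73), Eprs (-0.72), Lars (-0.62), Sars (-0.58), Kars (-0.58), Rars (-0.57), Tars (-0.52), Gars (-0.50), Dars (-0.45), Mars1 (-0.44), Sars2 (-0.43) and Farsa (-0.35). It was above 0 for Tars2 (0.66) and Qars (0.49). By the same rule 19.8% of all genes tested were below 0 and 17.7% above. The calls of Dars, Mars1 and Sars2 were lost in 4, 8 and 10 of the 12 fits that left out 1 library. Over the scalings their adjusted p of limma reached 0.14, 0.16 and 0.076. Groups of 3 libraries were too small to be examined for single outlying libraries.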

How the results depend on the processing

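In B vs. A the scaling decided most. With median-ratio scaling 9 cytosolic enzymes rose and 2 fell, and the cytosolic median lay 1.20 above the mitochondrial one. With quantile normalization 2 cytosolic enzymes rose and 4 fell, 2 mitochondrial enzymes rose and 2 fell, and the difference of medians (0.77 as reported) turned to -0.42. It was 0.90 with TPM, 1.38 with voom and 1.27 with pseudocount 0.1. Keeping only genes that averaged 5 FPKM or more left fewer genes, and 3 mitochondrial enzymes fell. Single log2 fold changes turned above 0 with median-ratio scaling for Eprs (0.69), Fars2 (0.27), Farsb (0.97), Gars (1.20), Hars (0.47), Mars1 (0.088), Qars (0.21), Rars2 (0.29), Sars2 (0.70), Tars2 (0.056), Wars1 (0.42), Yars (0.97) and Yars2 (0.65). With quantile normalization those of Fars2 (0.78), Farsb (0.78), Mars2 (0.39), Rars2 (0.53), Sars2 (1.10), Tars2 (0.22), Wars2 (0.33) and Yars2 (0.75) did, and with TPM that of Lars (-0.17) turned below 0. With 1 added to both values the ratio of Mars1 to Mars2 turned to -0.27.

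In C vs. B 4 cytosolic enzymes were higher in the fit with the replicate block, which moved no other count given for the synthetases by over 1.5 times. Over all genes that block, which paired the libraries by number, called 1070 higher and 5622 lower past both thresholds in B vs. A. The counts without it were the same, but each group holds every number once, so the block leaves the log2 fold changes unchanged. By the adjusted p alone it called 2157 higher and 7668 lower, against 2138 and 7639 without it. By the mean correlation with libraries of the other groups, 9 of 12 libraries were closest to those of their own number. The difference of medians in C vs. B (-0.11) was 0.0072 with pseudocount 0.1, 0.0016 with the filter at 5 FPKM and 0.025 with voom. In D vs. A the 1 lower cytosolic enzyme, Tarsl2, became 0 with pseudocount 0.1, no filter, the filter at 5 FPKM, TPM, median-ratio and quantile scaling. The 1 mitochondrial enzyme called, Yars2, became 0 with pseudocount 0.1, no filter and TPM, and 2 with quantile normalization or only the groups compared, and the difference of medians (0.29) was 0.16 with quantile normalization. In the interaction 1 mitochondrial enzyme instead of 2 was called with pseudocount 0.1, no filter, the filter at 5 FPKM, TPM, median-ratio scaling and voom, and the difference of medians (-0.47) was -0.32 with quantile normalization. The causes were not tested.

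With each library left out in turn, the counts in B vs. A were 1 to 2 cytosolic enzymes higher (2 without B2), 6 to 7 lower, 1 mitochondrial enzyme higher and 8 to 9 lower. In C vs. B 2 to 4 cytosolic enzymes were higher (4 without C2), in D vs. A 0 to 1 cytosolic enzymes were lower, 0 to 1 mitochondrial enzymes were called and the difference of medians was 0.18 (without A2) to 0.33. In the interaction 1 to 2 cytosolic enzymes were higher and 1 to 4 mitochondrial enzymes were called, the highest of both without C2. Calls lost were those of Lars (without A2 or B1) and Sars2 (without A2, A3 or B1) in B vs. A, and of Farsa (without B2, C1 or C3) and Lars (without B1, B3 or C2) in C vs. B. In the interaction Dars lost its call without A1, A2, B2 or D1 (adjusted p of limma 0.052 to 0.074), Mars1 in 8 of 12 fits (0.059 to 0.10, and its value was -0.27 without C2) and Sars2 in 10 of 12 (0.058 to 0.12). Depth limits Pars2, Cars2, Aars2 and Tarsl2 in groups B and C, where few reads stand behind a value.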
